A study of Danio rerio with 24 samples.

Results

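The quantity described here is the difference between 2 lines of zebrafish embryos in their transcriptional response to TCDD. For each gene it is the log2 fold change of TCDD over control in slincRosu3 embryos minus the same fold change in WT embryos, so a positive value means a more positive TCDD effect in slincRosu3. All 16 libraries of these 2 lines entered, of 24 samples in the series, and all 20907 genes with enough counts were tested. The groups were slincRosu3 with 1 ng/mL TCDD, slincRosu3 control, WT with 1 ng/mL TCDD and WT control, with 4 replicates in each. Exposure began at 6 hours post fertilization and RNA of whole embryos was taken at 48 hours. The slincRosu3 line carries a CRISPR-Cas9 mutation in slincR, a long intergenic noncoding RNA named for its neighbour sox9b. The heading of the authors' deposited table names DMSO for the WT control, and the labels name no vehicle. The sources used here give no number of embryos or clutches per library and no description of the edit. Neither is it stated that the replicates were separate clutches, so the p-values measure the spread between these libraries, which may be technical.

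TCDD (2,3,7,8-tetrachlorodibenzo-p-dioxin) binds the aryl hydrocarbon receptor, which in zebrafish acts mainly as Ahr2. The bound receptor enters the nucleus, pairs with Arnt and induces genes of xenobiotic metabolism, of which cyp1a is the classic marker, together with its own repressors. In developing zebrafish TCDD represses sox9b, a transcription factor needed for cartilage and heart development, and slincR is known as a transcript induced through Ahr2 that takes part in this repression. The difference between the lines asks whether embryos with an altered slincR answer TCDD in another way than WT embryos.

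No gene passed the threshold for the difference. With edgeR's quasi-likelihood test 0 of 20907 genes had a Benjamini-Hochberg adjusted p under 0.05, a share of 0%, and the smallest adjusted p was 0.946. At an unadjusted p under 0.05 there were 899 genes (4.3%), of which 446 (2.13%) were higher and 453 (2.17%) lower in slincRosu3 relative to WT. Where no gene differs, a share of 0.05 of all genes would on average have such a p, and 4.3% is below that. DESeq2 called 0 genes with 872 at an unadjusted p under 0.05, and limma-voom called 0 with 947. Limma-voom with a weight for each library called 5, namely nr1d2a, ier5l, coch, bco1 and the clone-named si:dkey-53i3.1. The TCDD effect itself was called for 80 genes (0.383%) in slincRosu3, for 68 genes (0.325%) in WT and for 168 genes (0.804%) when averaged over both lines.

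The libraries held 17275522 to 20100736 counts over 24778 to 25471 genes with a count. The label of treatment was checked with cyp1a, which separated all TCDD libraries from all control libraries. The label of line could not be checked on its target, because no gene of the symbol slincR was among the genes tested and it is not analysed here. Libraries also differed within groups: the first principal component took up 29.8% of the variance, and its 4 highest scores belonged to slincRosu3 control 4, WT TCDD 3, WT TCDD 4 and WT control 4. The median gene's within-group SD of log2 CPM (counts scaled to a common library size) was 0.158 for slincRosu3 TCDD, 0.214 for slincRosu3 control, 0.24 for WT TCDD and 0.25 for WT control.

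The intervals show how large a difference could have been missed. A difference of 4 means had a median standard error of 0.241 on the log2 scale, and the quartiles of the fitted differences were -0.17 and 0.16. The 95% interval of each gene lay wholly inside a 2-fold difference, in either direction, for 14574 genes (69.7%). It lay inside 1.5-fold for 7761 genes (37.1%) and inside 4-fold for 19754 genes (94.5%). The remaining 1153 genes had intervals that reached 4-fold or had no usable interval, as held for 9 genes. For the median gene the interval bound farther from 0, which is the largest difference not excluded, stood at 0.7 on the log2 scale or 1.63-fold.

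This resolution rose with expression. Genes were put into 4 bins of equal size by mean CPM. In the lowest bin, from 0.259 to 2.44 CPM, 939 genes (18%) had intervals inside 2-fold. The share was 73.2% in the second, 91.7% in the third and 96% in the top bin, which began at 28.8 CPM. The median farther bound, from the lowest bin to the top one, was 1.39, 0.77, 0.55 and 0.47. These intervals hold for 1 gene at a time. When widened by the Bonferroni method to hold for all genes together, 1242 genes (5.94%) stayed inside 2-fold and 11406 (54.6%) inside 4-fold. A single gene changed on its own would have needed a fitted difference of about 1.66 on the log2 scale, or 3.17-fold, to pass a Bonferroni threshold at the median standard error, and 541 genes (2.59%) had a fitted difference of over 1 in size.

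**Figure D1:**
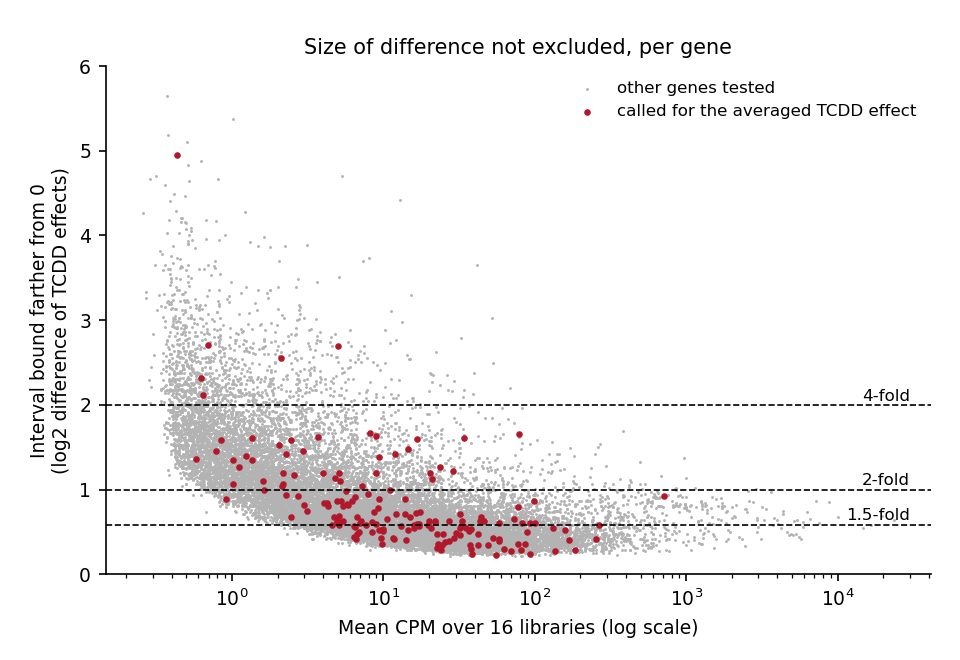
For each gene, mean CPM over the 16 libraries (log scale) against the bound of the 95% interval farther from 0, in log2 units of the difference of TCDD effects. Grey points are genes tested, red points are the 168 genes called for the averaged TCDD effect, and dashed lines mark 1.5-fold, 2-fold and 4-fold; 10 genes with a larger or no bound are not drawn. Bounds narrow with expression, and 14574 genes lie under the 2-fold line.

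The classic targets of the receptor were strongly induced in both lines. The enzyme gene cyp1a had 1655, 1684, 1931 and 1755 CPM in slincRosu3 TCDD and 4.04, 3.7, 4.21 and 5.32 CPM in slincRosu3 control. It had 1231, 1145, 856 and 1081 CPM in WT TCDD and 2.75, 3.5, 3.07 and 5.04 CPM in WT control. All 4 slincRosu3 TCDD libraries were above all 4 WT TCDD libraries, while the control groups overlapped. The TCDD effect on cyp1a was 8.67 in slincRosu3 and 8.24 in WT (log2), a difference of 0.43 with a 95% interval of -0.06 to 0.92 and an edgeR adjusted p of 0.996. On the fold scale the interval ran from 0.959 to 1.9, so the induction in slincRosu3 could be up to 1.9-fold that of WT. The log2 difference of cyp1a was 0.20 (-0.14 to 0.54) without the 4 libraries highest on the first component.

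Its paralogues did not share one direction. The gene cyp1c1 averaged 581 ± 31 CPM in slincRosu3 TCDD and 14.6 ± 1.12 CPM in slincRosu3 control, against 413 ± 57.6 CPM in WT TCDD and 10.2 ± 2.04 CPM in WT control (SD, n = 4 each). Both levels were higher in slincRosu3, and the induction, 39.7-fold in slincRosu3 and 40.6-fold in WT, differed by -0.033 (interval -0.42 to 0.35). A difference of more than 1.34-fold was outside this interval. For cyp1c2 the effects were 4.57 and 4.82 in slincRosu3 and WT, with a difference of -0.24 (-0.63 to 0.14), which was -0.44 (-0.87 to -0.021) without the 4 libraries highest on the first component.

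The gene cyp1b1, another enzyme of the family, had the widest gap among the 4 induced members. Its levels were 67.7, 73.4, 64.3 and 72.2 CPM in slincRosu3 TCDD, with 8.3, 12.9, 5.68 and 10.1 CPM in slincRosu3 control. WT TCDD libraries had 51.8, 60.4, 38.9 and 35.5 CPM and WT control libraries 16.2, 10.2, 7.07 and 13.1 CPM. The TCDD groups of the lines did not overlap and the control groups did. Its TCDD effect was 2.91 in slincRosu3 and 2.01 in WT, a difference of 0.90 (0.19 to 1.61), with an edgeR adjusted p of 0.996 over all genes. Without the 4 libraries highest on the first component this difference was 0.61 (-0.17 to 1.38).

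The receptor's own repressors were next. The repressor gene ahrra had 21.9, 18.1, 20.6 and 21.2 CPM in slincRosu3 TCDD, with 0.266, 0.261, 0.368 and 0.347 CPM in slincRosu3 control. It had 15.9, 14.6, 12.8 and 15.7 CPM in WT TCDD, with 0.337, 0.366, 0.468 and 0.436 CPM in WT control. The slincRosu3 TCDD libraries were all above those of WT TCDD, and the control levels rested on few counts in either line. The difference was 0.84 (0.049 to 1.63), an induction of 64.6-fold in slincRosu3 and 36.1-fold in WT. Leaving out the 4 libraries highest on the first component gave 0.80 (-0.13 to 1.73). For the second repressor, ahrrb, levels with TCDD were near 1 CPM and the difference of 0.73 had an interval of -1.24 to 2.71, which excluded little. The gene tiparp, an ADP-ribosyltransferase that also restrains the receptor, had effects of 0.99 and 0.74 in slincRosu3 and WT and a difference of 0.25 (-0.15 to 0.65). The receptor gene ahr2 rose with TCDD in both lines, by 0.76 in slincRosu3 and 0.97 in WT, and the difference was -0.21 (-0.61 to 0.20). It was -0.42 (-0.77 to -0.059) without the 4 libraries highest on the first component, with an edgeR adjusted p of 0.249.

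Other targets ranged from wide to narrow intervals. The secreted inhibitor gene wfikkn1 had a TCDD effect of 4.58 in slincRosu3 and 3.12 in WT, with a difference of 1.45 (0.22 to 2.69), which was 2.42 (1.06 to 3.78) without the 4 libraries highest on the first component. Its libraries read 10.8, 10.8, 8.78 and 10.4 CPM in slincRosu3 TCDD, 0.16, 0.313, 0.316 and 0.926 CPM in slincRosu3 control, 8.93, 5.95, 8.59 and 10.2 CPM in WT TCDD, and 2.08, 0.68, 0.468 and 0.622 CPM in WT control. WT control 1, at 2.08 CPM, stood above the other controls, and the groups of the same treatment overlapped between the lines. The sulfotransferase gene sult6b1 averaged 91.3 ± 5.77 CPM in slincRosu3 TCDD and 24 ± 1.76 CPM in slincRosu3 control, against 87.4 ± 9.51 CPM in WT TCDD and 29.1 ± 1.78 CPM in WT control (SD, n = 4 each). Its difference was 0.34 (0.07 to 0.61), where the TCDD levels overlapped and all 4 slincRosu3 controls were below all 4 WT controls. The growth factor gene fgf7 had a difference of 0.32 (-0.96 to 1.59) and the transcription factor gene foxq1a one of -0.58 (-1.60 to 0.44).

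Over the whole list of 19 measured AHR target genes, 15 were called higher with TCDD in slincRosu3 (0.354% of all genes) and 14 in WT (0.297%). Their differences were positive for 14 and negative for 5, with a median of 0.25, while over all genes tested the median was -0.0046 and 49.3% were positive. An unadjusted p under 0.05 was reached by 4 of the 19 (21.1%), against 4.3% of all genes. These were cyp1b1, ahrra, wfikkn1 and sult6b1, all higher in slincRosu3. Intervals inside 2-fold were had by 10 of the 19 (52.6%) and inside 4-fold by 17. Without the 4 libraries highest on the first component 12 of 19 were positive, with a median of 0.054, and 3 were higher and 4 lower at an unadjusted p under 0.05. Of all 21370 genes in that fit, 1653 were higher and 1947 lower at such a p. Among the 10 measured components of the receptor pathway, such as arnt2, aip and the hsp90 chaperones, the differences were positive for 6, and 0 reached an unadjusted p under 0.05.

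**Figure D2:**
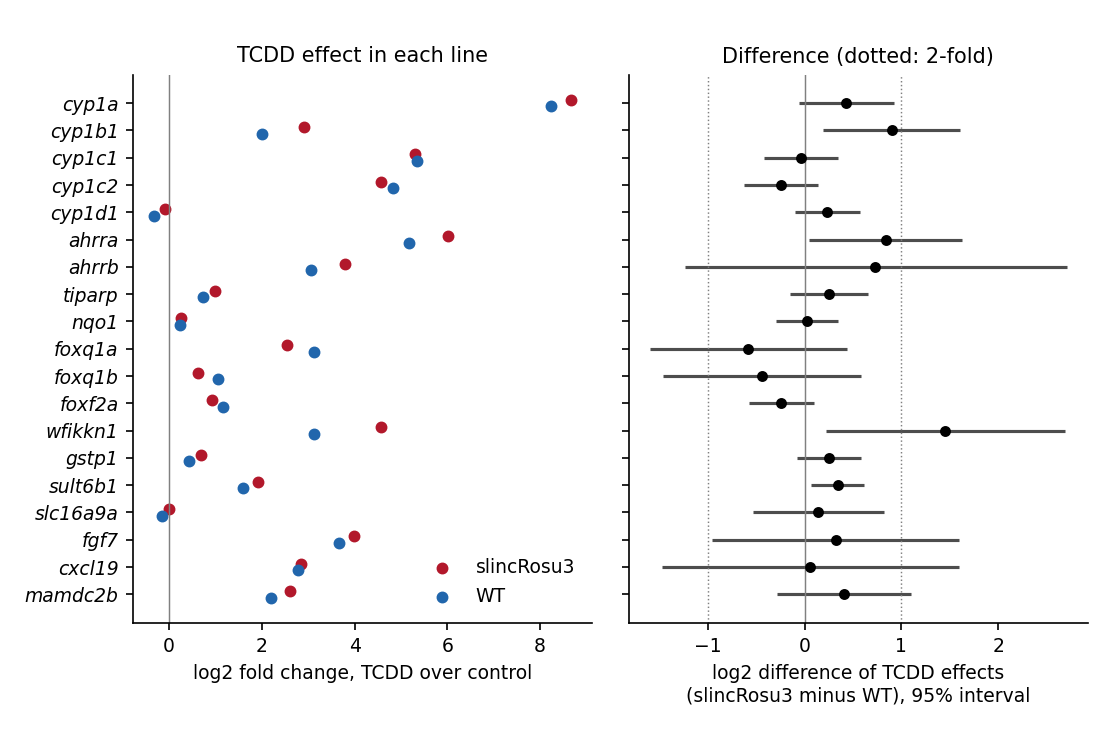
Left, log2 fold change of TCDD over control of the 19 AHR target genes in slincRosu3 (red) and WT (blue). Right, the difference of these effects (slincRosu3 minus WT) as a point with its 95% interval, with dotted lines at a 2-fold difference. The point of cyp1a stands at 0.43, and the intervals of cyp1b1, ahrra, wfikkn1 and sult6b1 lie above 0 before adjustment over all genes.

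The difference was also read for the 168 genes called for the TCDD effect averaged over both lines. With equal group sizes this contrast does not favour either sign of the difference, though it uses the same estimate of the spread. Among the 168 are targets listed above, including cyp1b1, ahrra, wfikkn1 and sult6b1, so the counts partly repeat those of the target list. Of these 168, 151 were higher and 17 lower with TCDD. The difference was positive for 101 and negative for 67, with a median of 0.058, and 125 (74.4%) had intervals inside 2-fold. An unadjusted p under 0.05 was reached by 27 (16.1%), against 4.3% of all genes, and 18 of these were higher and 9 lower in slincRosu3. Among the 151 genes raised by TCDD it was 22, with 18 higher and 4 lower. Among the 17 genes lowered by TCDD it was 5, all with a negative difference, including sfrp2, the fatty acid binding protein gene fabp11b, the complement gene cfd and the transcription factor gene osr1. None of the 27 passed the adjustment over all genes. Genes whose spread is estimated too small reach a small p more easily in both contrasts. The share of 16.1% may therefore be raised by the choice of the 168, which was not tested.

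Several enzyme genes were among the 18. The glucuronosyltransferase gene ugt1b1 had TCDD effects of 2.23 in slincRosu3 and 1.87 in WT, a difference of 0.36 (0.098 to 0.63). The electron carrier gene cyb5a had 1.62 and 1.17 in slincRosu3 and WT, a difference of 0.45 (0.12 to 0.79). For haem oxygenase hmox1a the effects were 1.16 and 0.47 and the difference 0.69 (0.12 to 1.26). On the Nrf2 and oxidative stress list of 24 genes only hmox1a had an unadjusted p under 0.05 (4.17%, against 4.3% of all genes). The oxygen sensor gene egln1a had effects of 1.18 in slincRosu3 and 0.41 in WT and a difference of 0.76 (0.11 to 1.42). Leaving out the 4 libraries highest on the first component gave 0.38 (-0.35 to 1.12) for egln1a and 0.76 (0.14 to 1.37) for hmox1a.

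The gene gchfr, whose product regulates GTP cyclohydrolase in biopterin synthesis, had the smallest p among the 168. It had 7.58, 6.5, 7.04 and 7.64 CPM in slincRosu3 TCDD and 2.34, 1.67, 1.84 and 2.08 CPM in slincRosu3 control, against 3.36, 2.95, 3.71 and 3.94 CPM in WT TCDD and 1.68, 1.83, 1.98 and 2.8 CPM in WT control. Every slincRosu3 TCDD library was above every WT TCDD library, and the control groups overlapped. The effect was 1.86 in slincRosu3 and 0.75 in WT, and the difference of 1.1 (0.58 to 1.62) had an edgeR adjusted p of 0.946.

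The negative difference with the smallest p among the 168 came with unequal controls. The gene ggact.2, which encodes a cyclotransferase for gamma-glutamylamines and has similarly named relatives that may share its reads, had 19.6, 20, 18.3 and 18 CPM in slincRosu3 TCDD and 17.9, 19.2, 18 and 17.9 CPM in slincRosu3 control. It had 6.82, 4.96, 8.75 and 7.03 CPM in WT TCDD and 2.97, 2.88, 3.28 and 4.54 CPM in WT control. All 8 slincRosu3 libraries were above all 8 WT libraries, and WT TCDD was above WT control. Its TCDD effect was 0.055 in slincRosu3 and 1.02 in WT, with a difference of -0.96 (-1.42 to -0.50) and an edgeR adjusted p of 0.946. The interferon-induced gene ifitm1 had effects of 1.98 and 3.25 in slincRosu3 and WT, a difference of -1.27 (-2.55 to 0.014). Its controls were unequal too, at 0.469 to 1.79 CPM in slincRosu3 and 0.0561 to 0.373 CPM in WT. Its slincRosu3 TCDD libraries, at 2.8 to 6.12 CPM, were all above WT TCDD, at 1.31 to 2.74 CPM. The cytokine gene il1b had effects of 1.17 and 2.1 in slincRosu3 and WT, a difference of -0.93 (-2.32 to 0.46). It had 2.06 and 1.81 CPM in WT TCDD 1 and 2, 0.483 and 0.735 CPM in WT TCDD 3 and 4, and at most 0.835 CPM elsewhere.

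At the other end stood the genes with the narrowest bounds. The calpain protease gene capn3b rose 1.36-fold in slincRosu3 and 1.36-fold in WT, and its difference of 0.0089 had an interval of -0.22 to 0.24, so a difference beyond 1.18-fold lay outside it. The zinc finger gene znf106b rose 1.39-fold in slincRosu3 and 1.36-fold in WT with a difference of 0.026 (-0.19 to 0.24). The Wnt antagonist gene nkd1, called only for the averaged effect, had 56.1, 60.7, 61.2 and 64.7 CPM in slincRosu3 TCDD, 50.9, 48.3, 50.6 and 48.7 CPM in slincRosu3 control, 62.1, 61.3, 64.6 and 57.8 CPM in WT TCDD and 53.7, 46.2, 48.7 and 52 CPM in WT control. In both lines all TCDD libraries were above all controls, and the difference was -0.0028 (-0.23 to 0.22). The hedgehog co-receptor gene boc and the matrix gene cilp had farther bounds of 0.27 each.

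**Figure D3:**
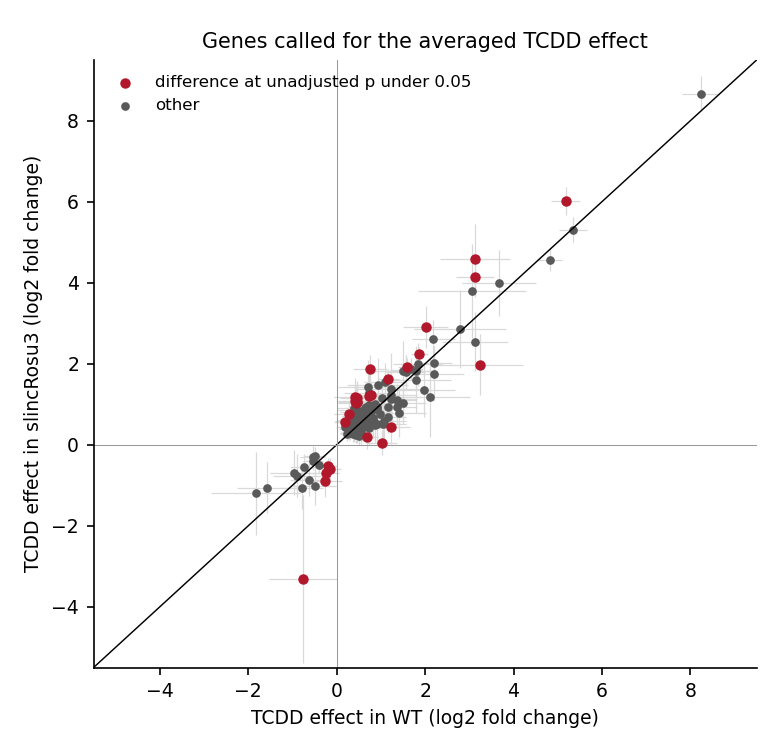
TCDD effect in slincRosu3 (vertical) against that in WT (horizontal), as log2 fold changes, for the 168 genes called for the averaged effect; grey bars are 95% intervals and the line marks equal effects. Red points are the 27 genes with an unadjusted p under 0.05 for the difference, of which 18 are higher and 9 lower in slincRosu3.

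**Figure D4:**
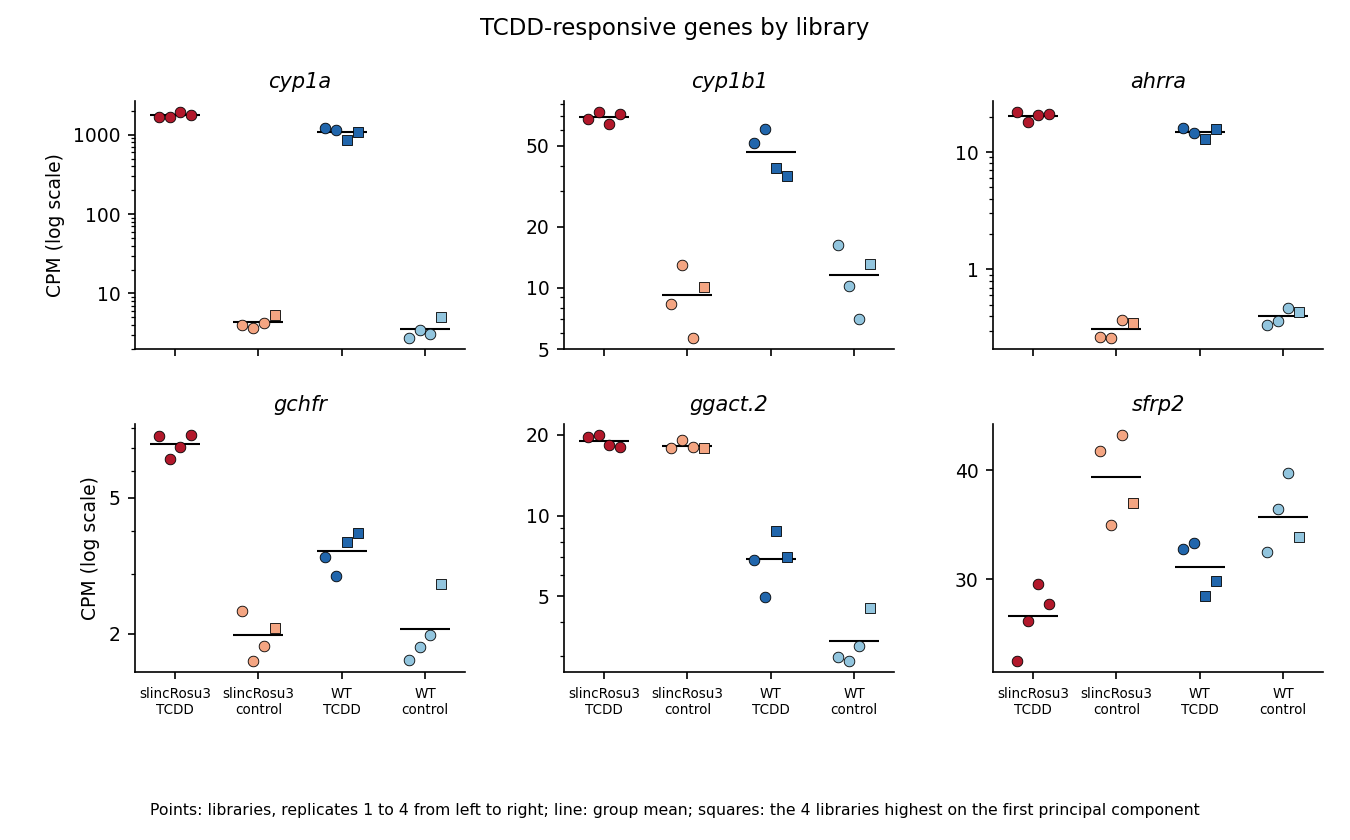
CPM of 6 TCDD-responsive genes in each library (log scale), with the mean of each group as a line and squares for the 4 libraries highest on the first principal component. The slincRosu3 TCDD libraries of cyp1a, cyp1b1, ahrra and gchfr lie above those of WT TCDD, and all slincRosu3 libraries of ggact.2 lie above all WT libraries.

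Among all genes, those with the smallest p-values had differences of moderate size in genes that TCDD mostly moved little. On the higher side, acsl2, an acyl-CoA synthetase gene, had 30.7, 25.1, 20.8 and 27.1 CPM in slincRosu3 TCDD and 18.7, 20.7, 21.4 and 18.8 CPM in slincRosu3 control, against 21.1, 21.2, 17.6 and 20.7 CPM in WT TCDD and 31.6, 25.7, 23.2 and 27.4 CPM in WT control. TCDD libraries lay mostly above controls in slincRosu3 and all below them in WT, and the difference was 0.80 (0.44 to 1.16) with an edgeR adjusted p of 0.946. The beta-carotene oxygenase gene bco1 had 0.62 (0.30 to 0.94), the stress-response gene gadd45ga 0.77 (0.35 to 1.18) and the sodium pump gene atp1a1a.2 0.61 (0.27 to 0.95).

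On the lower side, the glutathione transferase gene gstm.3 had 7.76, 7.93, 8.67 and 10.1 CPM in slincRosu3 TCDD and 16.3, 14, 13.6 and 12.6 CPM in slincRosu3 control, against 8.82, 10.4, 11 and 11.9 CPM in WT TCDD and 11.5, 9.2, 9.62 and 8.15 CPM in WT control. TCDD libraries were all below the controls in slincRosu3, and the groups overlapped in WT. Its difference was -0.84 (-1.24 to -0.44) with an edgeR adjusted p of 0.946. The tau gene maptb had -0.45 (-0.68 to -0.21), the RNA-binding protein gene celf5a -0.65 (-0.99 to -0.31), fam219b -0.64 (-0.97 to -0.32) and plekho1a -0.83 (-1.27 to -0.38). These genes were picked by their p among 20907 genes, and their sizes carry that choice.

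The sox9 axis is where a change in slincR would be looked for first. The gene sox9b had 98, 78.1, 58.4 and 83 CPM in slincRosu3 TCDD and 99.9, 103, 99.2 and 132 CPM in slincRosu3 control, against 67.1, 57.8, 131 and 102 CPM in WT TCDD and 155, 134, 112 and 159 CPM in WT control. TCDD libraries of slincRosu3 were all below their controls, while WT TCDD 3 lay among the WT controls. The TCDD effect was -0.45 in slincRosu3 and -0.64 in WT, neither past the threshold, with a difference of 0.19 (-0.45 to 0.83); a difference of more than 1.78-fold was outside the interval. The 4 libraries highest on the first component include WT TCDD 3 and 4, so without them WT TCDD rested on 67.1 and 57.8 CPM. The sox9b difference was then 0.74 (0.27 to 1.22) with an edgeR adjusted p of 0.184. For its paralogue sox9a the difference was 0.084 (-0.61 to 0.78). The Wnt regulator gene sfrp2 was lowered in slincRosu3, by an effect of -0.53 that passed the threshold, and had an effect of -0.19 in WT that did not, with a difference of -0.34 (-0.63 to -0.044) and an edgeR adjusted p of 0.996.

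Cartilage genes had mostly negative differences, and bone genes were near even. Over all 20907 genes tested, 10602 were negative and 2.17% were lower at an unadjusted p under 0.05. On the list of 18 genes of the sox9 axis 14 were negative, and sfrp2, sox5, acana and matn1 were lower at an unadjusted p under 0.05. On the list of 18 cartilage genes, which shares acana, matn1 and several collagens with it, 17 were negative with a median of -0.10, and 13 had intervals inside 1.5-fold. The aggrecan gene acana had a difference of -1.05 (-1.89 to -0.21). For the matrilin gene matn1 it was -1.90 (-3.65 to -0.15), with libraries from 12.7 to 56.6 CPM in slincRosu3 TCDD, 21.4 to 81.9 CPM in slincRosu3 control, 28 to 68.9 CPM in WT TCDD and 4.38 to 64.9 CPM in WT control. WT control 1 was the library at 4.38 CPM, and without it 12 of 18 cartilage genes were negative. On the bone list 10 of 17 were negative and 7 positive, with a median of -0.051, and without the 4 libraries highest on the first component 9 were negative and 8 positive. The hypertrophic and osteoblast genes col10a1a, with -0.93 (-1.56 to -0.31), panx3, with -1.06 (-1.67 to -0.46), and spp1, with -0.93 (-1.79 to -0.065), were lower at an unadjusted p under 0.05. The osteoblast-linked homeobox genes dlx3b, with 0.33 (-0.027 to 0.68), and dlx5a, with 0.25 (-0.15 to 0.64), had positive values. In whole embryos, fewer cells of a type and less RNA per cell cannot be told apart.

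Genes of Notch signalling, by which neighbouring cells hold each other back from differentiating, leaned the other way. Positive differences were had by 19 of 22, against 49.3% of all genes, with a median of 0.42. Of the 22, 7 (31.8%) were higher at an unadjusted p under 0.05, against 2.13% of all genes. These were the delta ligand genes dla, dlc and dld and the hairy-related effector genes her2, her4.2, her4.3 and her15.1. The gene her4.3 had 1.55, 1.38, 0.867 and 1.11 CPM in slincRosu3 TCDD and 1.38, 1.62, 1 and 1.5 CPM in slincRosu3 control, against 1.08, 1.4, 1.4 and 1.63 CPM in WT TCDD and 5.72, 3.03, 2.34 and 3.61 CPM in WT control. Only the WT control libraries were high, and her4.3 fell with TCDD in WT (edgeR adjusted p = 0.0246) with a difference of 1.24 (0.41 to 2.07). The near-identical genes of the her4 cluster can share reads, so their separate values are uncertain. Without WT control 1 the count was 18 of 22, with a median of 0.36. When the 4 libraries highest on the first component were left out, 17 of 22 were positive, and 12 were higher and 3 lower at an unadjusted p under 0.05. In that fit 1653 of all 21370 genes were higher and 1947 lower at such a p, more than with all 16 libraries.

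The lean of the cell cycle genes moved with the libraries in the fit. All 29 had a positive difference, against 49.3% of all genes, with a median of 0.15. Of them ccnd1 alone reached an unadjusted p under 0.05, with 0.64 (0.14 to 1.15), where 4.3% of all genes did. Their summed level ranged from 1772 to 2307 CPM in slincRosu3 TCDD, 1943 to 2947 CPM in slincRosu3 control, 1906 to 2640 CPM in WT TCDD and 2282 to 4003 CPM in WT control, where the highest was WT control 1. Without that library 12 of 29 were positive and the median was -0.042. With the 4 libraries highest on the first component left out and WT control 1 kept, all 29 were positive with a median of 0.49. In that fit 12 were higher at an unadjusted p under 0.05, against 1653 of all 21370 genes.

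Retinal genes had the median farthest from 0 among the 28 lists. Photoreceptor and retina genes were negative for 21 of 26, with a median of -0.67, and 4 of 26 had intervals inside 2-fold. Over all 20907 genes tested, 10602 were negative and 69.7% had intervals inside 2-fold. The cone arrestin gene arr3a had a difference of -1.40 (-2.55 to -0.25) and the photoreceptor factor gene crx had -0.80 (-1.49 to -0.12), whereas the gene atoh7, a factor of retinal ganglion cell formation, had 1.13 (0.21 to 2.04). The summed level was 340 to 542 CPM in slincRosu3 TCDD, 382 to 543 CPM in slincRosu3 control, 468 to 570 CPM in WT TCDD and 274 to 553 CPM in WT control, with WT control 1 the lowest of all 16. Without it 20 of 26 were negative and the median was -0.46. What part this library has in the retinal and cell cycle values was tested only by leaving it out.

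The other tissue lists gave smaller medians. Differences were positive for 17 of 21 erythroid genes, with a median of 0.36, for 15 of 18 heart muscle genes and for 27 of 34 skeletal muscle genes, each with a median of 0.17. Of the heart muscle genes 10 were positive, with a median of 0.022, when the 4 libraries highest on the first component were left out. They were negative for 20 of 25 neuron genes, with a median of -0.13, and for 17 of 20 lens genes, with a median of -0.21. At an unadjusted p under 0.05 there was fech, of haem synthesis, among the erythroid genes, and none among the heart muscle, skeletal muscle, neuron and lens genes. Over all genes tested 4.3% had such a p, and 49.3% had positive differences. Intervals inside 2-fold were had by 31 of 34 skeletal muscle genes, 22 of 25 neuron genes, all 20 lens genes and 22 of 23 endothelial genes. Markers of each of these tissues were present in all 4 groups.

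The count of 0 did not hold when libraries that stood apart were left out. Without the 4 libraries highest on the first principal component, which left 3 libraries of slincRosu3 control, 2 of WT TCDD and 3 of WT control, 20 of 21370 genes (0.0936%) passed edgeR's threshold for the difference, 8 higher and 12 lower in slincRosu3, and 3600 (16.8%) had an unadjusted p under 0.05. Among the 20 were genes of the immediate early response, which cells switch on within minutes of a stimulus, namely egr1, fosab, junbb, ier2a and ier2b. Proneural and hairy-related factors, namely ascl1a, neurog1, her6, her9 and hes2.1, were among them too. So were the stress-regulated genes ddit4, nfkbiaa and sik1 and the circadian clock gene per1b. The gene ier5l, also among the 20, had a positive difference of 0.72 (0.48 to 0.96), while egr1, fosab, junbb, ier2a and ier2b had negative ones. Of the 20, only ier5l was also called with library quality weights. All 20 had the same sign in the 16 libraries, which include those they were called on, so this is no separate support.

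The WT TCDD libraries left in were WT TCDD 1 and WT TCDD 2, so the 20 genes were chosen on them and the values that follow are a description. The gene egr1 ranged from 15.8 to 26.6 CPM in slincRosu3 TCDD and from 12.6 to 21.3 CPM in slincRosu3 control. It had 104 and 131 CPM in WT TCDD 1 and 2, 22.4 and 21.1 CPM in WT TCDD 3 and 4, and 14.5 to 25 CPM in WT control. For fosab the WT TCDD libraries had 71.7, 67.6, 4.08 and 5.46 CPM, and no other library was over 7.64 CPM. In the opposite direction neurog1 had 12.7 and 10.8 CPM in WT TCDD 1 and 2, with 50.1 and 35.5 CPM in WT TCDD 3 and 4.

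In all 19 of these genes that have a symbol, WT TCDD 1 and 2 both lay beyond the other 14 libraries, above them in 11 genes and below them in 8. With WT TCDD 1 and 2 left out instead, 5 genes were called, and 0 of them were among the genes called without the 4 libraries. With WT TCDD 3 and 4 left out, 4 were called, and all 4 were among those genes, including ier2b, ier2a and egr1. Whether WT TCDD 1 and 2 differ from the rest by clutch, handling or time of collection is given nowhere in the labels and was not tested.

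**Figure D5:**
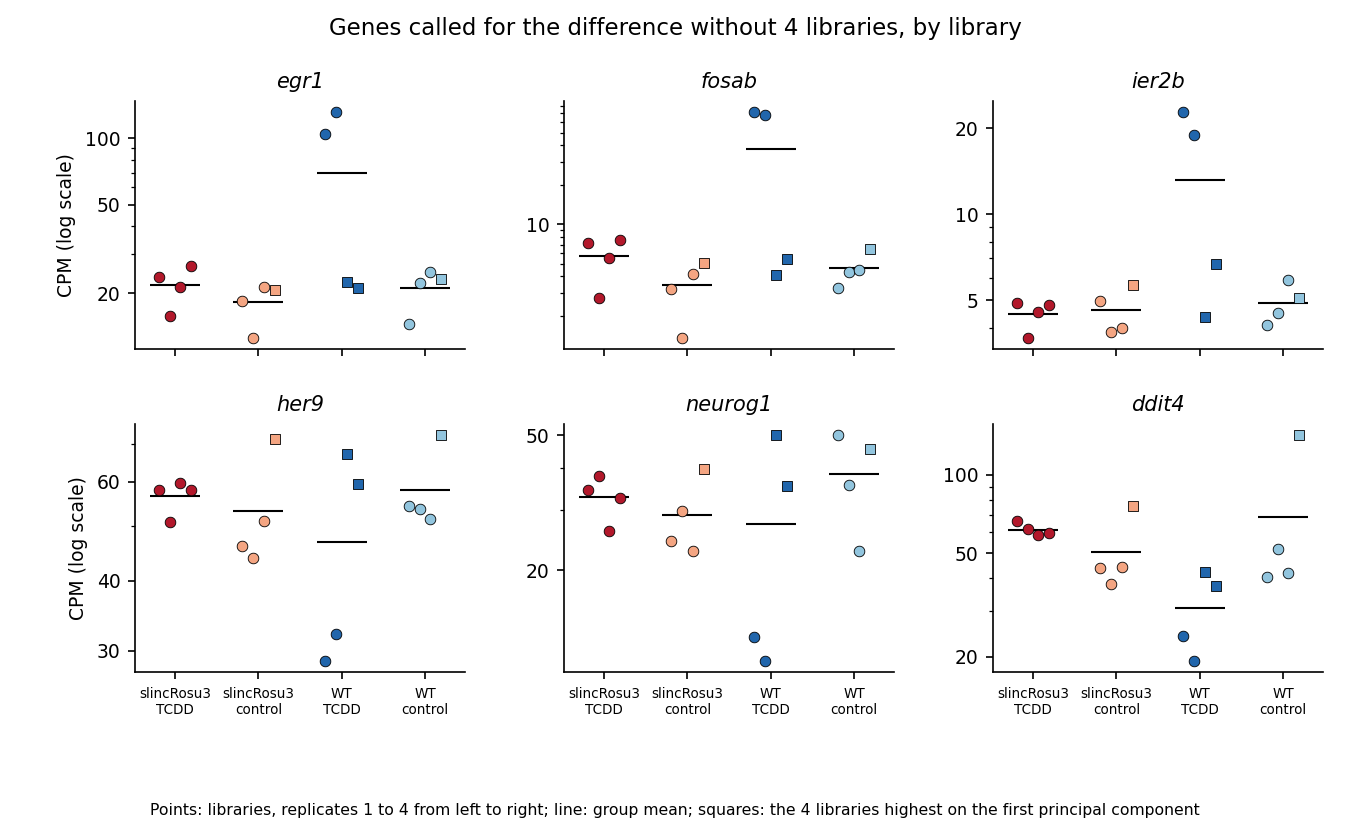
CPM (log scale) of 6 of the 20 genes called without the 4 libraries highest on the first principal component, which are drawn as squares; lines are means of all 4 libraries of a group. WT TCDD 1 and 2 lie apart from the other 14 libraries in each gene, for egr1 at 104 and 131 CPM.

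The gene her9 shows what the 4 libraries do to an interval. It had 58.1, 50.9, 59.7 and 58 CPM in slincRosu3 TCDD and 46.1, 43.9, 51.1 and 71.4 CPM in slincRosu3 control, against 28.8, 32.1, 67.2 and 59.4 CPM in WT TCDD and 54.3, 53.6, 51.5 and 72.7 CPM in WT control. The 4 libraries left out were the highest of the 16 apart from slincRosu3 TCDD 3, which was above WT TCDD 4. With all 16 the difference was 0.40 (-0.27 to 1.07), and without the 4 it was 1.06 (0.79 to 1.34) with an edgeR adjusted p of 0.00519. For ddit4 the values were 1.45 (0.42 to 2.49) with all 16 and 1.59 (1.23 to 1.95) without the 4, with an adjusted p of 0.996 and 0.00343 in edgeR. The 4 libraries were picked by scores from these same counts, and only WT TCDD 1 and 2 then stood for their group. The narrower intervals and smaller adjusted p-values carry that choice.

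The fitted differences were also compared with those implied by the fold changes in the authors' deposited table. The fold changes in that table are all against WT control. The TCDD effect in slincRosu3 is therefore implied by those of slincRosu3 TCDD and slincRosu3 control. For cyp1a the table gives an effect of 8.23 in WT and implies 8.68 in slincRosu3, and for gchfr it implies a difference of 1.11. Over all genes the implied difference in the authors' deposited table was within 0.1 of the fitted one for 20894 of 20907 genes (99.9%). Both rest on the same samples, so this compares the calculations and is no independent support.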

How the data were processed

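RNA of whole embryos was sequenced in 24 samples, of which 16 entered here; the 8 BigD samples were not analysed. The main table deposited by the authors holds raw counts per gene. Per the name they gave it, the table adds 2 read files of each sample and leaves out genes at 0 and the least expressed ones. The counts of the 2 files added up to the table in 8 of 8 WT libraries with 49.5% to 50.1% in the first, so a fragment may be counted in both mates. The printed depths may then exceed the number of fragments, and counting error may be larger than they imply; standard errors rest on the spread between libraries, and the effect on them and on the shares of intervals was not tested. In 1 column of the deposited counts 1 value was not whole and was treated as an expected count and rounded. Per the submitters' processing notes HISAT2, STAR, DESeq2 and the build GRCz11 were used; no source used here gives the counting program, the strand setting or versions. The authors' deposited log2 fold changes served only as a comparison. In the tables, 78 per-sample columns were not mapped and not used, 48 of them under an unlabelled name.

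Differences were computed with edgeR 4.0.16 in R 4.3.3, with TMM scaling, edgeR's filter on low counts by group (20907 of 26347 genes kept), a quasi-likelihood fit of 4 groups, 2-sided tests and Benjamini-Hochberg adjustment at 0.05. Standard errors were taken from the unshrunken difference and the test statistic, and 95% intervals from the t distribution with 17.2 degrees of freedom; a standard error over 5 gave no interval. Intervals are centred on edgeR's slightly shrunken differences while the standard errors come from unshrunken ones, so 880 intervals leave out 0, beside 899 genes at an unadjusted p under 0.05. CPM values are TMM-scaled. Depth was 17275522 to 20100736 counts, and 0 of 24 pairs of replicates had identical counts. Symbols came from the authors' table for 21149 genes and from a name table for 3623. Alternatives used DESeq2 1.42.0, limma 3.58.1, other scaling, no filter, a replicate block and left-out libraries. The procedure was also run on simulated counts with known differences. These were drawn independently for each library, without libraries that stand apart as here, so interval coverage in that case was not tested.

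The genes, the 28 gene lists and the tests were chosen with earlier results of these data known. Named genes were a fixed set of AHR and sox9 genes, the 6 smallest p-values in each direction, the largest, the smallest and the tightest differences among genes called for the averaged effect, the genes called without 4 libraries, and up to 2 of each list. One result that this rule names is not reported here. Further genes with an unadjusted p under 0.05 and further list members were named after their values were seen.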

Additional observations from a re-analysis of the deposited data

Results flagged for a closer look

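Among 79 named genes and 4 groups each, 26 groups of 4 libraries held 1 library far from the other 3 (a gap of more than Dixon's 95% limit), where chance flags about 1 in 20 groups. The sox9 paralogues were both flagged in slincRosu3 control 4, where sox9a had 22.2 CPM and sox9b had 132 CPM. That library also stood apart for ddit4 at 75.8 CPM, ier5l at 213 CPM and cdkn1d at 5.26 CPM. WT control 4 stood above its group for ddit4 at 142 CPM, rbm5 at 154 CPM, her9 at 72.7 CPM and epc1b at 81.2 CPM. Both are among the 4 libraries highest on the first principal component. The genes ddit4, ier5l, cdkn1d, rbm5, her9 and epc1b were named because they were called without those 4 libraries. Their flags in these libraries follow in part from that choice. Many of the 79 genes were picked by values in these same libraries, so the rate of 1 in 20 is no measure for them.

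WT TCDD 3 was apart for acsl2 at 17.6 CPM, col10a1a at 103 CPM, matn1 at 28 CPM, ccnd1 at 229 CPM and atoh7 at 7.25 CPM. WT TCDD 4 was apart for ifitm1 at 1.31 CPM and fabp10a at 2.36 CPM, and WT TCDD 2 for dkk1b at 2.84 CPM. In WT control, replicate 1 was high for wfikkn1 at 2.08 CPM, and replicate 3 was high for fabp11b at 11.7 CPM, cilp at 62.1 CPM and mbpa at 2.96 CPM. In slincRosu3 TCDD, replicate 3 was high for fabp11b at 8.18 CPM, fabp10a at 1.35 CPM and acana at 20.2 CPM, and replicate 1 for nfkbiaa at 11.6 CPM. In slincRosu3 control, replicate 2 was high for ggact.2 at 19.2 CPM. The cause of these values was not tested.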

How the results depend on the processing

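The count of 0 genes for the difference stayed at 0 with DESeq2 size factors, with the DESeq2 Wald test, with limma-voom, without the filter on low counts and with each of the 16 libraries left out in turn. Leaving out 1 library gave 563 to 1506 genes at an unadjusted p under 0.05, 13802 to 14569 genes with intervals inside 2-fold, a median of 0.036 to 0.08 over the genes called for the averaged effect, and 112 to 201 averaged calls, 46 to 102 in slincRosu3 and 46 to 76 in WT. The unadjusted count moved most without slincRosu3 TCDD 1 (563), slincRosu3 control 4 (1453) and WT control 3 (1506), and the slincRosu3 calls without slincRosu3 TCDD 1 (51), slincRosu3 control 1 (46) and slincRosu3 control 2 (53). Library quality weights gave 5 calls, 3507 genes at an unadjusted p under 0.05, and 748, 716 and 292 calls for the averaged effect, slincRosu3 and WT. Without the 4 libraries highest on the first component these were 20, 3600, 486, 170 and 327. Chosen after seeing the data, leaving out WT TCDD 1 and 2 gave 5 and 1738, and leaving out WT TCDD 3 and 4 gave 4 and 1848. The DESeq2 Wald test called 268 genes for the averaged effect, 160 in slincRosu3 and 147 in WT. A bound of 1.5-fold held 7761 genes, and simultaneous intervals inside 2-fold held 1242. Replicate numbers were not taken as pairs, since the labels do not say what they share and 16 of 24 same-number pairs, not all, had correlated deviations over 0.1 (range -0.276 to 0.676, median 0.184, against -0.0515 for other pairs). All 6 pairs of number 2 lay at 0.28 to 0.513. The replicate block gave 0 calls for the difference, 1321 genes at an unadjusted p under 0.05, 15129 inside 2-fold and 188 averaged calls, 96 in slincRosu3 and 80 in WT.

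Of 1495 recomputed values of 65 named genes, 1471 kept their sign and their side of the threshold, 12 gained a call and 12 changed sign, in 4 genes whose intervals all include 0. The gains include genes named because they were called without the 4 libraries, a setting recomputed here, so those gains were fixed in advance. Many of the 65 were picked by their p or their difference in these same libraries, which favours a kept sign. The difference of ahrrb was -0.25 with quality weights and -0.26 without the 4 libraries, and that of sox9a was -0.048 without the 4. With 1 library left out, sox9a ranged from -0.13 to 0.28, cyp1c1 from -0.13 to 0.082 and fgf7 from -0.22 to 0.88. The causes were not tested. Intervals were widest in the lowest of the 4 bins of expression, where 18% of genes had them inside 2-fold.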
